A study of Mus musculus with 6 samples.

Results

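The genes described here are the receptors through which bisphenols are most often studied: Esr1 and Esr2 (the oestrogen receptors alpha and beta), Esrra (oestrogen-related receptor alpha), Gper1 (a membrane oestrogen receptor), Thra (thyroid hormone receptor alpha), Nr3c1 (the glucocorticoid receptor), Rara (retinoic acid receptor alpha), Rxra (retinoid X receptor alpha) and Pparg (peroxisome proliferator-activated receptor gamma). They were taken by gene name from a table of 34745 genes, and all 9 were found. Expression was measured by RNA sequencing in RAW 264.7 cells, a mouse macrophage line, 3 libraries being from cells given the solvent DMSO and 3 from cells given BPAP, that is bisphenol AP, a structural relative of bisphenol A. The sources used here give neither the dose nor the exposure time. Both groups are the same cell line, and the labels do not say whether the replicates were grown as separate cultures. The p-values are therefore about how far these libraries scatter, and that scatter may be technical.

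Nuclear receptors are transcription factors that are switched by small lipophilic ligands, and each binds DNA through a zinc-finger domain at copies of a short half-site. Rxra is the common partner: the retinoic acid, thyroid hormone, PPAR and LXR receptors bind DNA as heterodimers with an RXR, whereas the glucocorticoid and oestrogen receptors bind mainly as homodimers. Gper1 is the exception in the group, a G protein-coupled receptor and not a nuclear receptor. Bisphenol A is known to bind the oestrogen receptors weakly and oestrogen-related receptor gamma tightly, and in macrophages Nr3c1, Pparg and the retinoid receptors are known for restraining inflammatory genes or for controlling lipid handling.

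Library totals ran from 11084705 to 13806559 counts. DMSO 1 and BPAP 2 stood apart from the other libraries of their group, with a chi-square per degree of freedom of 19.0 and 20.0 for DMSO 1 and 18.2 and 17.3 for BPAP 2, against 6.64 between DMSO 2 and DMSO 3 and 8.31 between BPAP 1 and BPAP 3. The mitochondrial share of counts was 10.8% in DMSO 1 and between 6.53% and 7.55% elsewhere. Of 12 macrophage markers 11 were tested, with a summed level of 5432 to 6227 CPM in DMSO and 6213 to 6656 in BPAP, and the remaining one, Mertk, had 0 counts. The markers did not go one way. Of the 11 tested, 6 rose, among them Cd14 and Fcgr1 (log2 fold changes 1.299 and 1.23), and 2 fell, Ptprc and Csf1r (-0.64 and -0.41). Of all tested genes 16.2% rose and 15.5% fell. The summed level rests mostly on Lyz2 and Cd68. The part of these differences in the receptors' values was not tested. Of 23 markers of T cells, B cells, fibroblasts, epithelium and adipocytes 0 passed the filter and 13 had 0 counts.

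In RAW 264.7 cells, 6 of the 9 receptors were expressed in the sense that they passed edgeR's default filter on low counts, and 3 were not. Rara fell 1.41-fold in BPAP and Esrra rose 1.41-fold. Thra, Rxra, Nr3c1 and Esr1 had log2 fold changes of 0.26, 0.38, 0.15 and 0.19 and missed the threshold of 0.05 (edgeR quasi-likelihood F test, Benjamini-Hochberg adjusted p over 11711 genes). The call of Esrra depended on single libraries, as given with its values, and that of Rara was lost without DMSO 2 by a narrow margin (adjusted p = 0.0516). The 2 receptors called are 33.3% of the 6 tested, and 31.7% of all tested genes were called, so the number called is that of the background. The groups did not overlap for 3 of the 6 (Rara, Esrra and Thra), as for 49% of all tested genes. In these bulk libraries a change in the share of cells in a given state cannot be told apart from a change of RNA in each cell.

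The promoters of both called receptors are shown because Esrra and Rara are the members that passed the test. Each window runs from 250 bases before to 50 bases after a RefSeq transcription start (GRCm38.p6), and capitals mark the receptor half-site AGGTCA, searched on both strands. Esrra has 1 window in that table, at chr19:6921759-6922058 on the minus strand. Rara has 4, of which the first, at chr11:98937446-98937745, and the last, at chr11:98964622-98964921, both on the plus strand, are printed.
Esrra: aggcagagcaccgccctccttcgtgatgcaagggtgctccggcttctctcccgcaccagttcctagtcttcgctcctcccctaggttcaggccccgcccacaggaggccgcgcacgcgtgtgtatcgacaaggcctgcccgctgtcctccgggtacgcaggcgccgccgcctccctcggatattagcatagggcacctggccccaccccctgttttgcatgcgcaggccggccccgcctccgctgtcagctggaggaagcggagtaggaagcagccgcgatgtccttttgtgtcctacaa
Rara, first start: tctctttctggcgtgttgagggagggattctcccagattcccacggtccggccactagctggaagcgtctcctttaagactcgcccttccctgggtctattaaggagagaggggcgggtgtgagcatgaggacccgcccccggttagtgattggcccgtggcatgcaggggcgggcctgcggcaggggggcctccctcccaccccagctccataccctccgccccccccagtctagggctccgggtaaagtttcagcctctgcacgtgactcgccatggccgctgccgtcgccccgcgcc
Rara, last start: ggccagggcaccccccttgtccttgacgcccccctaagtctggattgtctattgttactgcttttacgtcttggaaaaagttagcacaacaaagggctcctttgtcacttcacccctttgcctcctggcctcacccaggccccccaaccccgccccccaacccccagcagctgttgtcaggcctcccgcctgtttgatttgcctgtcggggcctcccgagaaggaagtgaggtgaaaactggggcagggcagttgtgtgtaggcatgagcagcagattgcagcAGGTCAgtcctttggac
The Esrra window and the first Rara window held 25 and 20 CpG dinucleotides at a GC content of 66.0% and 66.3%, against a median of 7 and 52.7% over 32851 windows. The last Rara window held 6, and it has an AGGTCA on the plus strand at position 284, counted from 1 at the 5′ end. At least 1 AGGTCA was present in 16.3% of all windows, and in 4 of 14 windows of the receptors, which belong to Pparg, Rara and Rxra. The table had windows for 7 of the 9 receptors. The extended half-site TNAAGGTCA, which contains AGGTCA and is the form bound by oestrogen-related receptors, was in none of the 14 windows and in 1.28% of all windows. Palindromic sites were searched as well: the oestrogen response element (GGTCA, 3 bases of any kind, TGACC) was in 0.07% of all windows, the glucocorticoid response element (GNACA, 3 bases of any kind, TGTNC) in 0.475%, and neither was in any of the 14.

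**Figure D1:**
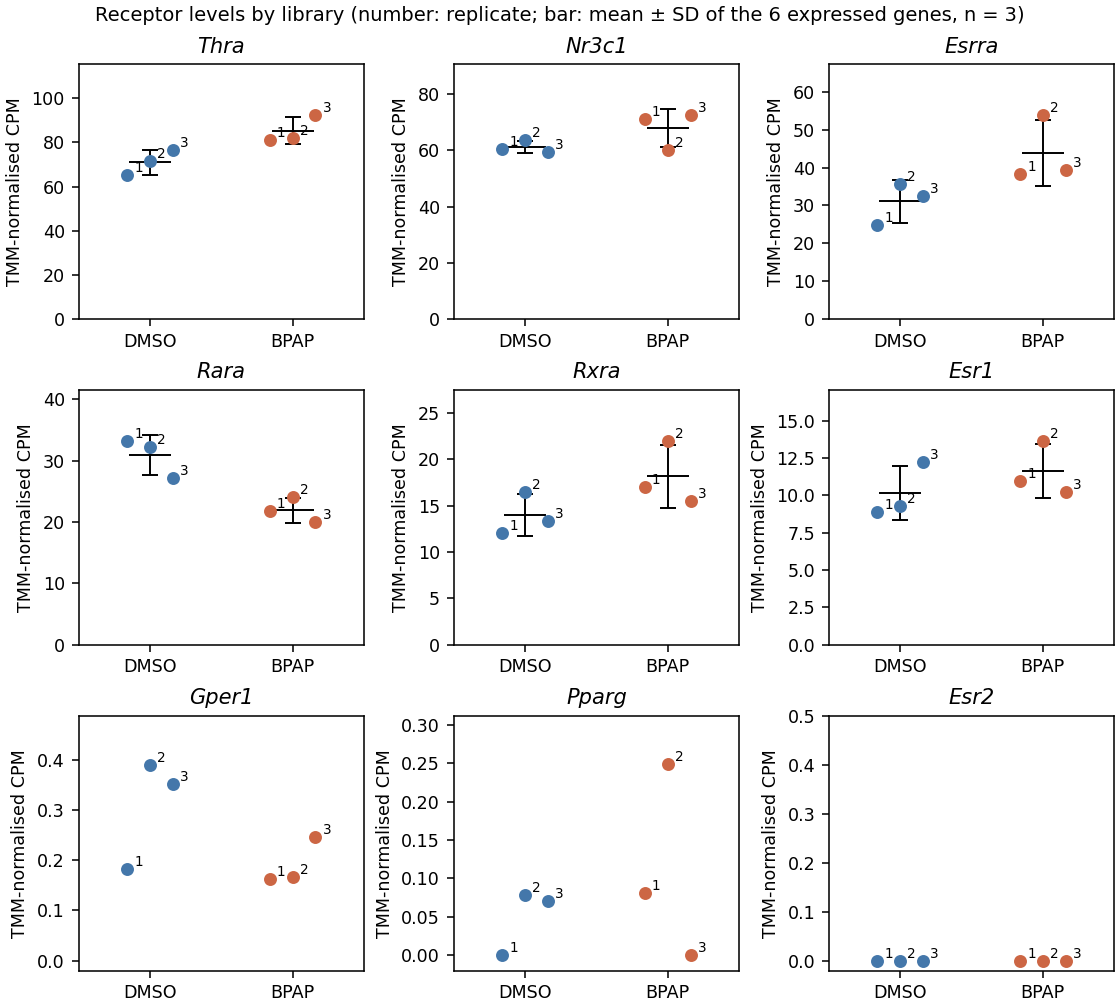
Normalised CPM (counts scaled to a common library size) of each receptor in the 6 libraries, on axes that differ between panels; the numbers beside the points are replicates, and bars give mean ± SD for the 6 expressed genes. The DMSO and BPAP points are separate for Rara, Esrra and Thra, and Gper1, Pparg and Esr2 are at or near 0.

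Of the oestrogen receptors, Esr1 was the one with an appreciable number of counts. Esr1 (chromosome 10, 4611593 to 5005614, GRCm38, plus strand), the classical oestrogen-activated transcription factor, had 97, 119 and 174 counts with DMSO and 135, 164 and 125 with BPAP. In CPM, counts scaled to a common library size with TMM factors, these were 8.90, 9.31 and 12.3 against 10.99, 13.6 and 10.3. The groups overlapped, and DMSO 3 was higher than BPAP 1 and BPAP 3. It differed by 0.19 ± 0.17 (SE) on the log2 scale (edgeR adjusted p = 0.432), and without both DMSO 1 and BPAP 2 it was -0.03 (adjusted p = 0.923).

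Esr2 (chromosome 12, 76120419 to 76177259), the second oestrogen receptor, had 0 counts in every library, and the limit of 3 counts that a count of 0 allows is 0.271 CPM where the library is smallest. Gper1 (chromosome 5, 139423151 to 139427800), which couples oestrogen to rapid signalling at membranes, had 2, 5 and 5 counts in DMSO and 2, 2 and 3 in BPAP. The highest of these is just above the limit of 3 counts, so Gper1 was detected at trace level and was not tested. In a fit with no filter on low counts its adjusted p was 0.555. Oestrogen-related receptor gamma, the gene Esrrg known to bind bisphenol A tightly, had at most 1 count in a library, and Esrrb had 0. It was added after its values were seen.

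Esrra (chromosome 19, 6910977 to 6921813, minus strand), an orphan receptor that drives genes of mitochondrial energy production, was the member of its family that these cells expressed. Its counts were 271, 457 and 461 in DMSO and 472, 647 and 480 in BPAP, which corresponds to 24.9, 35.8 and 32.5 CPM against 38.4, 53.8 and 39.4 CPM. All 3 BPAP values lay above all 3 DMSO values, with DMSO 1 the lowest library and BPAP 2 the highest. The mean rose from 31.0 ± 5.58 to 43.9 ± 8.65 CPM (SD, n = 3 per group), with a log2 fold change of 0.50 ± 0.17 (SE) and an edgeR adjusted p of 0.0452. The call was lost without DMSO 1 (log2 fold change 0.35, adjusted p = 0.163), without DMSO 3 (adjusted p = 0.0898) and without BPAP 2 (0.32, adjusted p = 0.12). Without both DMSO 1 and BPAP 2, the library of each group that stood apart, the log2 fold change was 0.19 (adjusted p = 0.194). It was also lost with limma-trend on the deposited FPKM (adjusted p = 0.0789). Its exons share 73 bases with Trmt112 on the opposite strand, a gene at 18.0 ± 2.57 CPM in DMSO and 22.1 ± 1.15 in BPAP, and with no strand setting given the reads of that stretch cannot be told apart.

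Rara (chromosome 11, 98927818 to 98974942, plus strand), which activates target genes in response to all-trans retinoic acid, was the receptor that fell. It had 362, 413 and 386 counts in DMSO and 268, 289 and 243 in BPAP. In CPM the libraries were at 33.2, 32.3 and 27.2 against 21.8, 24.1 and 19.9, so each BPAP library was below each DMSO library. The mean fell from 30.9 ± 3.25 to 21.9 ± 2.06 CPM (SD, n = 3 per group), with a log2 fold change of -0.49 ± 0.12 (SE) and an edgeR adjusted p of 0.0132. Without DMSO 2 the log2 fold change was -0.46 with an adjusted p of 0.0516, and without both DMSO 1 and BPAP 2 it was -0.51 (adjusted p = 0.0109). No other annotated gene (GENCODE M21) shared exon bases with Rara.

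Esrra and Rara have merged exons of almost the same length, 4387 and 4365 bases. Their ratio within a library does not depend on how libraries are scaled, but its level depends on the lengths used. The deposited FPKM implies 4079 bases for Esrra and 5694 for Rara. In FPKM Esrra was above Rara in every library, at 5.99, 8.93 and 8.19 against 5.735, 5.78 and 4.91 in DMSO. A change of lengths multiplies the ratio by the same factor in every library. Per kilobase of exon, the ratio of Esrra to Rara was 0.745, 1.10 and 1.19 with DMSO and 1.75, 2.23 and 1.97 with BPAP. The ratio was higher in every BPAP library than in any DMSO library, with means of 1.01 ± 0.235 and 1.98 ± 0.238 (SD, n = 3 per group). The ratio was chosen after both values were seen and is a description with no test of its own.

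Rxra (chromosome 2, 27676440 to 27762957, plus strand), the heterodimer partner of Rara, Thra and Pparg, had 131, 211 and 190 counts in DMSO and 209, 264 and 189 in BPAP. These were 12.0, 16.5 and 13.4 CPM against 17.0, 21.97 and 15.5 CPM. BPAP 3 lay below DMSO 2, so the groups overlapped, and BPAP 2 was the highest library, as for Esrra and Esr1. The log2 fold change was 0.38 (SE 0.17, adjusted p = 0.113), and without both DMSO 1 and BPAP 2 it was 0.12 (adjusted p = 0.574).

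Thra (chromosome 11, 98740638 to 98769006, plus strand), whose products include a receptor for the thyroid hormone T3, had 710, 915 and 1084 counts in DMSO and 999, 986 and 1126 in BPAP. In CPM these were 65.2, 71.6 and 76.4 against 81.3, 82.1 and 92.4. The groups did not overlap, yet the difference missed the threshold (log2 fold change 0.26, SE 0.10, adjusted p = 0.0642). Thra shares 263 exon bases with Nr1d1, the gene of the clock repressor REV-ERB alpha, on the opposite strand, and part of its count could belong there. Nr1d1 was at 59.5, 46.7 and 43.5 CPM in DMSO and 34.9, 28.2 and 47.7 in BPAP (log2 fold change -0.43, adjusted p = 0.124).

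Nr3c1 (chromosome 18, 39410545 to 39491301, minus strand), which carries the anti-inflammatory response to glucocorticoids, had 659, 814 and 844 counts in DMSO and 873, 724 and 885 in BPAP. In CPM it was at 60.5, 63.7 and 59.5 against 71.0, 60.3 and 72.6. BPAP 1 and BPAP 3 were above all DMSO libraries and BPAP 2 was within their range. The log2 fold change was 0.15 (SE 0.10, adjusted p = 0.270).

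Pparg (chromosome 6, 115360951 to 115490399), a lipid-sensing receptor of adipocytes and tissue macrophages, had 0, 1 and 1 counts in DMSO and 1, 3 and 0 in BPAP. No library exceeded the limit of 3 counts, and Pparg was not tested. In the fit with no filter its adjusted p was 0.668.

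Per kilobase of merged exon, Thra was the most abundant of the expressed receptors and Esr1 the least (the plot of length-corrected levels). Mean levels over the 6 libraries were 16.9 CPM per kilobase for Thra, 8.54 for Esrra, 8.41 for Nr3c1, 6.05 for Rara, 2.94 for Rxra and 0.797 for Esr1. On this scale Thra stood at percentile 76.0 of the tested genes, Esrra, Nr3c1 and Rara at percentiles 56.6, 56.1 and 45.8, Rxra at 27.4 and Esr1 at 9.39. The order of Thra, Rxra and Esr1 was the same in every library, and Nr3c1 was above Rara in all 6. Esrra and Nr3c1 did not separate: Esrra was the lower in all 3 DMSO libraries and in 2 of the 3 BPAP libraries. Esrra was above Rara in 2 of 3 DMSO libraries and in 3 of 3 BPAP libraries. The order of Esrra, Nr3c1 and Rara depends on the length used. The deposited FPKM implies 16741 bases for Nr3c1, against 7684 merged exon bases. In FPKM Nr3c1 was at 3.55, 3.87 and 3.65 in DMSO, below Rara at 5.735, 5.78 and 4.91. In BPAP Nr3c1 was at 4.196, 3.587 and 4.255, against 3.787, 4.21 and 3.435 for Rara. Esrra was above both in every library.

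**Figure D2:**
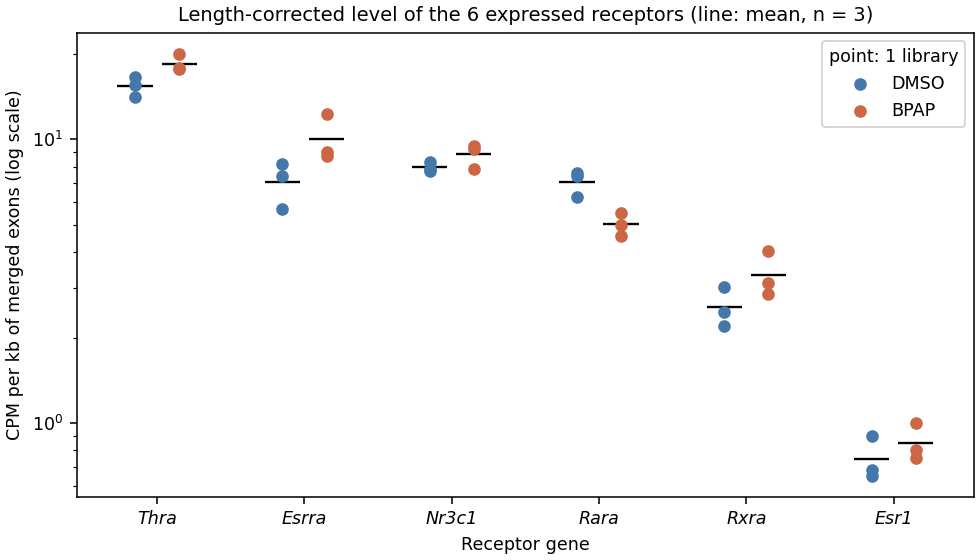
Level of the 6 expressed receptors in CPM per kilobase of merged exon, on a log axis, with 1 point per library and lines at group means. Thra is above the others in every library and Esr1 below them. With these lengths the mean ratio of Esrra to Rara is 1.01 in DMSO and 1.98 in BPAP.

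Log2 fold changes fell with exon length over all tested genes (Spearman rho -0.40 across 11677 genes, which are not independent replicates). Esrra, Thra and Rara lie in the length decile of 4296 to 5093 bases, where the median log2 fold change was -0.0045 and 152 genes were higher and 149 lower, so these receptors stand where the trend crosses 0. Nr3c1 and Esr1 are longer, with 7684 and 13661 bases, and the medians of their deciles were -0.16 and -0.29, whereas their own log2 fold changes were positive. After each library was corrected for its trend over exon length and GC content, Nr3c1 passed the threshold with 0.35 (adjusted p = 0.0157), Esr1 was at 0.49 (adjusted p = 0.0856), and Esrra at 0.44 no longer passed (adjusted p = 0.0794). Rara passed there too, at -0.52 (adjusted p = 0.00785).

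**Figure D3:**
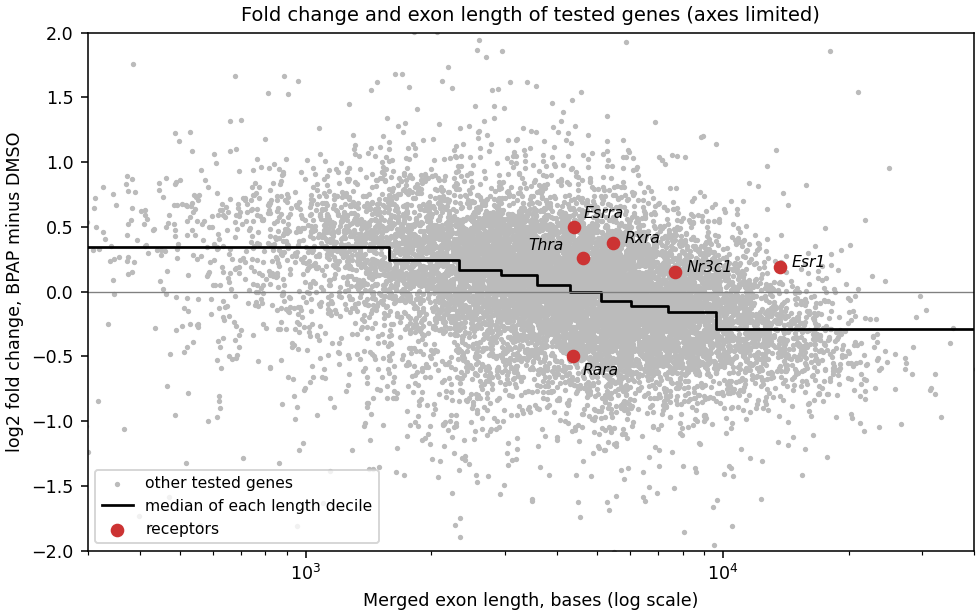
Log2 fold change against merged exon length (log axis) for the tested genes, with the median of each length decile as a black line and the 6 receptors in red; 44 genes lie outside the axes. Esrra, Thra and Rara sit where the line crosses 0, and Nr3c1 and Esr1 lie above the line, whose values there are -0.16 and -0.29.

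**Figure D4:**
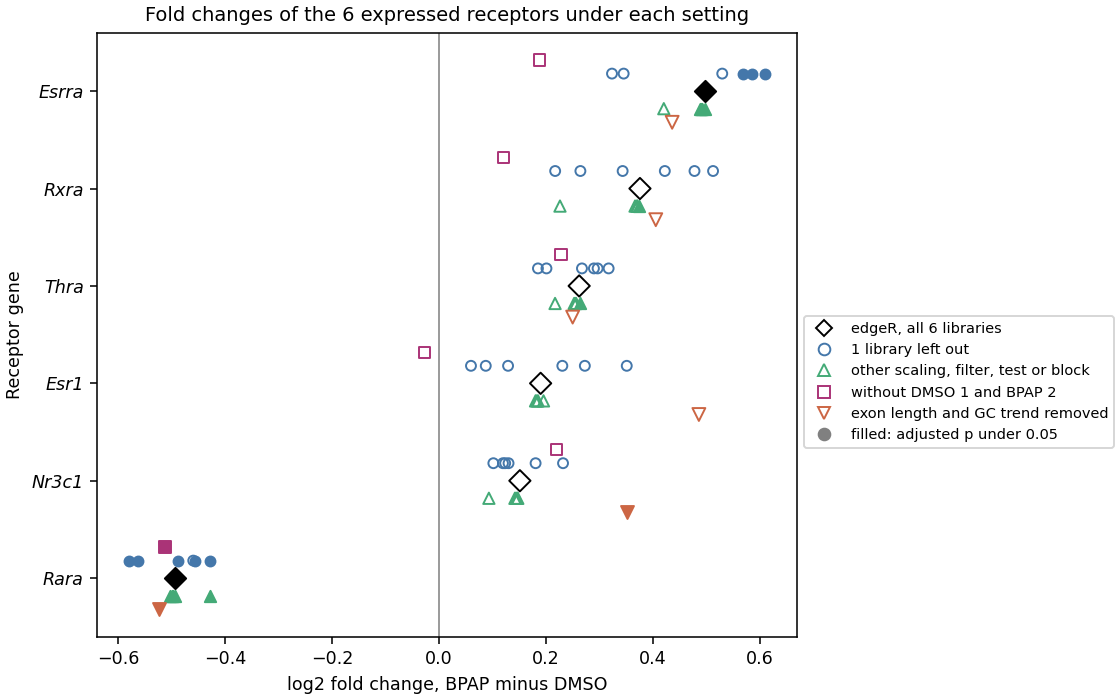
Log2 fold change of the 6 expressed receptors under the main test and each alternative, filled where the adjusted p was under 0.05. Rara is below 0 under every setting shown, from -0.58 to -0.43, while the values of Esrra run from 0.19 to 0.61 and are filled under some of them.

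The genes whose log2 CPM followed each receptor most closely over the 6 libraries are given as a description. They were picked from 8508 genes with a mean of at least 10 CPM. Over 6 libraries in 2 groups, picking the highest r from so many genes can give high values by itself. The closest were H2-M3 (Pearson r 0.998) and Map3k10 (0.996) for Esrra, Ptprs (0.996) and Dgkz (0.996) for Rara, and Bnip3 (0.997) and Ei24 (0.990) for Thra. For Nr3c1 they were Klf6 (0.992) and Rybp-ps (0.987), for Rxra Tbl3 (0.993) and Gsr (0.988), and for Esr1 Heatr1 and Ube3c (both 0.991).

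Of the 41 other nuclear receptors of the mouse, 17 were tested, of which 2 rose and 0 fell; the median difference was 0.11 on the log2 scale, against 0.02 for all tested genes. Nr1h2, the gene of the oxysterol receptor LXR beta, rose from 54.8 ± 3.09 to 76.9 ± 7.79 CPM (SD, n = 3 per group, log2 fold change 0.49, SE 0.10, adjusted p = 0.00633). Its libraries were at 54.7, 51.7 and 57.9 CPM in DMSO and 73.7, 85.7 and 71.1 in BPAP, with no overlap. Nr2c1, an orphan receptor gene also called TR2, rose from 9.49 ± 0.447 to 13.4 ± 0.971 CPM (adjusted p = 0.0187), a call that did not hold with DMSO 1 (adjusted p = 0.0641), DMSO 2 (0.0575) or BPAP 1 (0.0513) left out. With 1 library left out, between 1 (without DMSO 1 or DMSO 2) and 4 (without BPAP 3) of these receptors passed. Over all genes 2610 of 11839, 2511 of 11846 and 3201 of 11854 passed in these fits. At 11.8% the share called was below the 31.7% of all tested genes.

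Close relatives of the receptors were present beside them, chosen here after their values were seen. Rxrb, a second RXR, had a mean of 19.9 CPM per kilobase over all libraries and Rarg, a second retinoic acid receptor, 15.8, both above Rxra and Rara. Rarg was at 66.8 ± 2.22 CPM in DMSO and 67.5 ± 2.45 in BPAP (log2 fold change 0.02, adjusted p = 0.903). Rarb, itself a classical retinoic acid target, was at 2.11, 1.49 and 2.11 CPM in DMSO and 2.28, 8.49 and 2.05 in BPAP, so that BPAP 2 stood far above the other 5 libraries. Rarb shares 1793 of its 5265 exon bases with Top2b on the opposite strand, which had a mean of 1764 counts against 37.8 for Rarb. With no strand setting given, part of the Rarb count could belong to Top2b. Ppard, the PPAR delta gene, was at 48.1 ± 1.29 CPM in DMSO and 44.7 ± 6.16 in BPAP (log2 fold change -0.11, edgeR adjusted p = 0.507). Thrb, the second thyroid hormone receptor, Ppara and Pgr had 0 counts in every library.

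Coregulators, which receptors recruit to open or close chromatin, were the list with falls and no rises: of 23 tested, 8 fell and 0 rose, where 15.5% of all tested genes fell and 16.2% rose. The median log2 fold change was -0.18. Ep300, a histone acetyltransferase, fell from 221 ± 26.8 to 146 ± 7.52 CPM (log2 fold change -0.60, SE 0.10, adjusted p = 0.00259), and the chromatin remodeller gene Smarca4 from 231 ± 19.7 to 164 ± 7.23 (adjusted p = 0.00359). Ncor1, the corepressor that silences targets of unliganded receptors, fell from 365 ± 42.3 to 255 ± 13.4 CPM (adjusted p = 0.00430), and the coactivator gene Ncoa6 from 124 ± 16.1 to 91.0 ± 6.31 (adjusted p = 0.0123). These are long genes: the median exon length was 8664.5 bases in the list and 4296 over all tested genes. With the length and GC trend removed 5 of 22 fell and 0 rose, where 1333 of all 11665 genes tested fell and 1388 rose. The 5 included these 4 genes, with log2 fold changes of -0.36 for Ep300, -0.42 for Smarca4, -0.29 for Ncor1 and -0.32 for Ncoa6. Without DMSO 1 the number that fell was also 5, where 1366 of 11839 genes fell.

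The glucocorticoid receptor is kept ready for ligand by chaperones, and of 13 tested genes for these and for ligand activation 5 rose and 1 fell, with a median of 0.17. That is 46.2% called, against 31.7% of all tested genes (16.2% higher and 15.5% lower). Dnajb1, a heat shock protein 40 gene, rose from 84.4 ± 4.88 to 191 ± 26.6 CPM (SD, n = 3 per group, log2 fold change 1.18, SE 0.11, adjusted p = 0.000301). The p23 gene Ptges3 rose 1.43-fold and the FKBP52 gene Fkbp4 1.38-fold, and the cyclophilin 40 gene Ppid fell 1.38-fold. The other rises, outside the naming rule, were in the co-chaperone gene Bag1 and in H6pd, which supplies NADPH to the glucocorticoid-regenerating enzyme. Without DMSO 1 the list held 1 rise and 1 fall, and Ptges3 (adjusted p = 0.0522) and Fkbp4 (0.0564) did not pass. Over all genes 2610 of 11839 passed in that fit. With the length and GC trend removed, 3 of the 13 rose and 2 fell (median 0.04), where 1388 of all 11665 genes tested rose and 1333 fell. Ptges3 did not pass in that fit either (adjusted p = 0.0658). Neither HSP90 gene passed: Hsp90ab1 was at 2166 ± 66.6 CPM in DMSO and 2444 ± 21.2 in BPAP (adjusted p = 0.121), and Hsp90aa1 at 552 ± 14.8 and 516 ± 76.7 (adjusted p = 0.528). Hsd11b1, the enzyme that regenerates active glucocorticoid, had at most 2 counts in a library.

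Of 16 tested targets of the glucocorticoid receptor, 3 rose and 2 fell (median 0.06), and this share of 31.2% is that of the background (31.7%). The phosphatase gene Dusp1 rose from 21.9 ± 4.47 to 52.5 ± 10.7 CPM (log2 fold change 1.26, SE 0.18, adjusted p = 0.00153) and the transcription factor gene Cebpd 1.75-fold, though Cebpd shares 562 exon bases with Spidr on the opposite strand. The kinase gene Sgk1 rose 1.54-fold, from 13.3 ± 1.04 to 20.6 ± 4.05 CPM, a call lost without DMSO 1 (adjusted p = 0.0589). The clock gene Per1 fell 1.48-fold and Nfkbia, which encodes an inhibitor of NF-kB, 1.39-fold. Sgk1 is outside the naming rule. Fkbp5 and Tsc22d3, known as sensitive readouts of this receptor and named after their values were seen, had log2 fold changes of 0.08 (adjusted p = 0.618) and -0.02 (adjusted p = 0.906). Without both DMSO 1 and BPAP 2, a setting chosen after the data were seen, 6 of the 16 rose and 2 fell. Over all 11748 genes tested there, 1752 rose and 1722 fell. With the length and GC trend removed, 3 of the 16 rose and 2 fell (median -0.06), where 1388 of all 11665 genes tested rose and 1333 fell.

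Of 16 tested targets of Pparg and its RXR partner, 4 rose and 2 fell (median 0.13), a share of 37.5% that is near the 31.7% of all tested genes. The lipid droplet gene Plin2 rose 1.67-fold, the lipolysis inhibitor gene Hilpda 1.70-fold and the fatty acid-binding protein gene Fabp5 1.496-fold. Lpl, the lipoprotein lipase gene, fell from 648 ± 41.6 to 252 ± 40.1 CPM (log2 fold change -1.36, SE 0.12, adjusted p = 0.000257), and the other fall was that of the cholesterol exporter gene Abca1, a classical LXR target, from 46.3 to 18.2 CPM (-1.35). Fabp4, the marker target of Pparg, had at most 3 counts in a library, and Cd36 was at 0.758 CPM in DMSO and 0.904 in BPAP on average (adjusted p = 0.680). These and Abca1 were named after their values were seen. With the length and GC trend removed, 4 of the 16 rose and 2 fell (median 0.0362), where 1388 of all 11665 genes tested rose and 1333 fell.

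In the retinoic acid list 3 of 8 tested genes rose and 0 fell (median 0.27). These 37.5% stand beside 31.7% of all tested genes called and 16.2% higher. Tgm2, a transglutaminase gene and a classical retinoic acid target in macrophages, rose from 49.7 ± 1.63 to 71.4 ± 1.70 CPM (SD, n = 3 per group, log2 fold change 0.52, SE 0.09, adjusted p = 0.00231), and shares 370 exon bases with Rprd1b on the opposite strand. Dhrs9, a retinol dehydrogenase gene, rose 1.68-fold and the retinol saturase gene Retsat 1.23-fold. The call of Retsat was lost in 10 of 13 alternatives, among them 5 of the 6 with a single library left out (adjusted p 0.0575 to 0.134, the exception being BPAP 2). With the length and GC trend removed, 2 of the 8 rose and 0 fell (median 0.172), where 1388 of all 11665 genes tested rose and 1333 fell. The retinoic acid-synthesising genes Aldh1a1, Aldh1a2 and Aldh1a3 had 0 counts in every library.

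In the thyroid hormone list 3 of 6 tested genes rose and 0 fell (median 0.34), where 16.2% of all tested genes rose and 31.7% were called in either direction. Slc3a2 and Slc7a5, the subunits of an amino acid transporter that also carries thyroid hormone, rose 1.402-fold and 1.35-fold, and the malic enzyme gene Me1 rose 1.27-fold. With DMSO 3 or BPAP 2 left out 1 gene passed, where over all genes 2647 of 11837 and 3314 of 11848 did. Slc7a5 was lost without DMSO 1 (adjusted p = 0.111), DMSO 3 (0.0698) and BPAP 2 (0.0537), and Me1 without DMSO 2 (0.137), DMSO 3 (0.126), BPAP 1 (0.101) and BPAP 2 (0.0727). Me1 was also lost with the length and GC trend removed (adjusted p = 0.0733). In that fit 2 of the 6 rose and 0 fell (median 0.225), where 1388 of all 11665 genes tested rose and 1333 fell. The deiodinase genes Dio1 and Dio3 had 0 counts and Dio2 at most 11.

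Of 9 tested oestrogen receptor and Gper1 targets, 4 rose and 1 fell (median 0.30). The share called was 55.6%, and over all tested genes it was 31.7%, with 16.2% higher and 15.5% lower. Ctsd, the gene of the lysosomal protease cathepsin D, rose from 1885 ± 242 to 3500.4 ± 112 CPM (log2 fold change 0.89, SE 0.11, adjusted p = 0.000627), and shares 808 exon bases with the annotated gene Gm49369 on the same strand. The immediate early genes Fos and Egr1 rose 2.07-fold and 1.85-fold, and Bcl2, an inhibitor of apoptosis, 1.34-fold. Egr1 was lost without DMSO 2 (adjusted p = 0.0551) and DMSO 3 (0.0573), Bcl2 without DMSO 3 (0.0664) and BPAP 1 (0.0619). The fall, outside the naming rule, was in the corepressor gene Nrip1, which also counts among the coregulators (adjusted p = 0.0425), which did not pass in any fit without 1 library (adjusted p 0.0631 to 0.103), nor with the length and GC trend removed (0.794). Without DMSO 2, 3 of the 9 passed, and without DMSO 3, 2 passed. Over all genes 2511 of 11846 and 2647 of 11837 passed in these fits. With the length and GC trend removed, 4 of the 9 rose and 0 fell (median 0.145), where 1388 of all 11665 genes tested rose and 1333 fell. Pgr, Ltf and Ret had 0 counts, Tff1 at most 1 and Greb1 at most 11.

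Of 18 tested targets of Esrra, genes of mitochondrial energy metabolism, 6 rose and 1 fell (median 0.18). At 38.9% the share called was near the background of 31.7%. By direction, 16.2% of all tested genes rose and 15.5% fell. Cox5b, a subunit gene of cytochrome c oxidase, rose from 102 ± 8.10 to 169 ± 9.01 CPM (SD, n = 3 per group, log2 fold change 0.72, SE 0.09, adjusted p = 0.000803). Ndufa4 rose 1.45-fold, the carnitine carrier gene Slc25a20 1.75-fold and the mitochondrial ribosomal protein gene Mrpl15 1.45-fold. Cox5b and Ndufa4 are short, with 1587 and 1381 exon bases, and the medians of their length deciles were 0.247 and 0.346. Slc25a20 is counted in the Pparg list as well. The fall, named after its value was seen, was in the fatty acid oxidation gene Acadm (log2 fold change -0.31, adjusted p = 0.0270), which did not pass without DMSO 1, DMSO 2, DMSO 3 or BPAP 1, where no gene of the list fell. The Esrra coactivator gene Ppargc1a had 0 counts in every library, and Ppargc1b was at 17.3 ± 1.66 CPM in DMSO and 13.6 ± 0.38 in BPAP (adjusted p = 0.0575). With the length and GC trend removed, 5 of the 18 rose and 3 fell, where 1388 of all 11665 genes tested rose and 1333 fell.

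**Figure D5:**
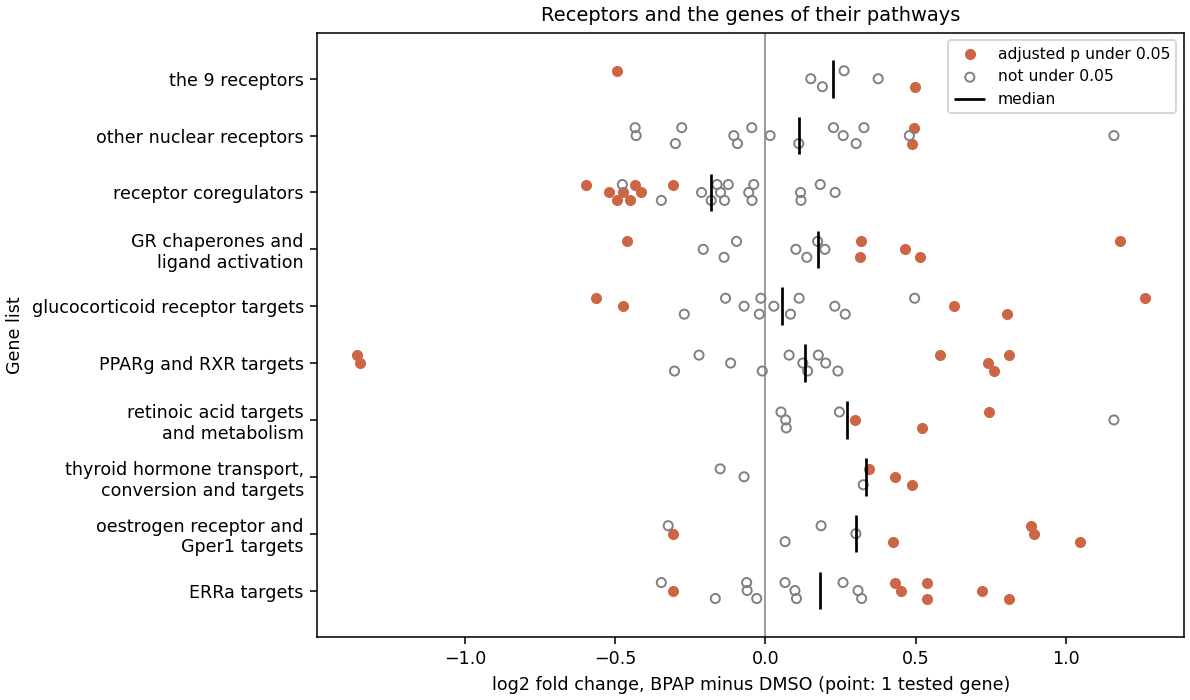
Log2 fold change of every tested gene of the 9 receptors and of 9 lists of related genes, filled where the adjusted p was under 0.05, with the median of each list as a black bar. The coregulators are the list with falls and no rises (8 and 0), and the other 8 lists hold rises, with falls in 5 of them.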

How the data were processed

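Total RNA of RAW 264.7 cells was sequenced in 3 DMSO and 3 BPAP libraries, grouped by their treatment label. The authors deposited 1 table with raw counts per gene and library, whole numbers with the libraries kept apart, per the file headers and the values. The FPKM values deposited beside them were used in 1 alternative. Per the submitters' processing notes, HISAT2 2.0.4, StringTie 1.3.3b, edgeR and GRCm38 belong to the processing, without their roles or order. The sources used here do not give the strand setting, the annotation release or the treatment of multi-mapping reads.

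Genes passing edgeR's default filter (11711 of 34745) were scaled by TMM and compared with edgeR (version 4.0.16 under R 4.3.3) by its robust quasi-likelihood test with treatment as the only term; p-values were adjusted after Benjamini and Hochberg over these genes, with 0.05 as the threshold. Log2 fold changes are BPAP minus DMSO, and standard errors derive from the F statistic. Exon lengths are merged GENCODE M21 exons (34344 identifiers matched). A gene is called expressed if it passed the filter, detected if any library had over 3 counts. That limit is 0.217 to 0.271 CPM before TMM scaling and covers counting error only.

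The receptors and lists were chosen with earlier results of these data known. From each list, up to 4 genes past the threshold with the smallest p are named, and genes outside that rule are marked. Alternatives were DESeq2 size factors, no filter, DESeq2 1.42.0, limma-trend (limma 3.58.1) on log2(FPKM + 1) where the mean FPKM reached 1, a block for the replicate number, 1 library left out, and removal of each library's lowess trend (span 0.3) with exon length and GC. Leaving out DMSO 1 and BPAP 2 together was chosen after the data were seen. The main and the trend-removed fits were also run on simulated counts. These had a single dispersion for all genes and no library that stood apart. That run therefore does not cover the calls that depended on single libraries.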

Additional observations from a re-analysis of the deposited data

How the results depend on the processing

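The number of receptors called, 2 of 6, was 1 with limma-trend on FPKM (Rara), 1 to 2 with libraries left out, and 1 without both DMSO 1 and BPAP 2 (Rara). It was 2 after correction for exon length and GC content, where the called receptors were Rara and Nr3c1 in place of Rara and Esrra. Whether the replicate numbers pair the samples was not settled. The deviations of same-numbered libraries from their group means correlated weakly, at 0.101, 0.0542 and 0.00985. DMSO 1 and DMSO 2 correlated best with the BPAP library of their own number, and DMSO 3 with BPAP 2 (0.0454). With the replicate number as a block, 4 receptors passed (Thra and Rxra in addition, at adjusted p = 0.0335 and 0.0415), and 5 other nuclear receptors. That fit called 4236 of all 11711 tested genes, against 3715 in the main test. With libraries left out, the numbers called ranged from 1 to 4 for other nuclear receptors, 5 to 7 for coregulators, 2 to 5 for glucocorticoid receptor chaperones, 4 to 8 for glucocorticoid receptor targets, 1 to 3 for the thyroid hormone list and 2 to 4 for oestrogen receptor targets. Over all genes 3715 were called in the main test and 2511 to 3314 with 1 library left out. Without both DMSO 1 and BPAP 2 the number over all genes was 3474. With the trend removed 5 coregulators passed, and with limma-trend 1 gene of the thyroid hormone list. Over all genes 2721 of 11665 passed with the trend removed and 3463 of 10171 with limma-trend. The log2 fold change of Esr1 was -0.028 without both DMSO 1 and BPAP 2, 0.35 without DMSO 3 and 0.49 with the trend removed. The cause of these differences was not tested. Of the alternative values of single genes, 475 kept their direction and their side of the threshold, 53 lost a call, 3 gained one and 1 changed sign. Depth limits what can be said of Esr2, Gper1 and Pparg, which had at most 0, 5 and 3 counts in a library.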
